A study of Mus musculus with 5 samples.

Results

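Aminoacyl-tRNA synthetases join each amino acid to its matching transfer RNA, the step that sets which residue a codon adds to a protein. The cytosol and the mitochondria hold separate sets of these enzymes, nearly all encoded by different nuclear genes, and a few genes serve both compartments. In the lens, fibre cells build very large amounts of crystallin protein and then lose their mitochondria, nuclei and other organelles, whereas the epithelium keeps them. The genes described here are the rows of the deposited table that carry the KEGG pathway term Aminoacyl-tRNA biosynthesis and have at least 10 counts in 2 or more of the 5 libraries. The term was carried by 44 of 22183 genes, and all 44 met the count rule and also passed the filter of the test across all genes. They were sorted by textbook role into 19 cytosolic synthetase genes, 2 genes whose products serve both compartments (Gars and Kars), 17 mitochondrial synthetase genes, 4 mitochondrial accessory genes (Gatb, Gatc, Qrsl1 and Mtfmt) and 2 genes of the selenocysteine branch (Pstk and Sepsecs).

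Poly(A) RNA was sequenced from whole lenses of mice at postnatal day 14, with 2 libraries of Yap1 conditional knockout (cKO) and 3 control (Ctrl) libraries, each made from a pool of 4 to 6 lenses. For the cKO group, Yap1 f/f;Cre or Yap1 f/+;Cre animals were used that had been picked by eye for small eyes and a closed pupillary membrane, so either genotype can be present in a pool. The Ctrl pools came from unaffected littermates with the floxed alleles Yap1 f/f or Yap1 f/+, and are labelled WT under genotype. Which Cre line was used is not stated in the labels. Yap1 acts with TEAD factors to switch on genes when Hippo signalling is low.

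The libraries held 22047580 to 25762802 expected counts, and 12028 to 12602 genes had a count in cKO against 13972 to 14199 in Ctrl. Yap1 had 92 counts in cKO 1 and 61 in cKO 2, with 155, 133 and 143 for Ctrl 1, 2 and 3, a log2 fold change of −1.08 (SE 0.33) that did not pass the threshold (edgeR adjusted p = 0.0759). The lens marker Cryaa, an α-crystallin gene, stood at 130230 to 167740 CPM in the 5 libraries (CPM are counts scaled for library size with TMM factors). Macrophage markers moved with the group: 11 of the 12 tested were higher in cKO, and the list of 15 summed to 368 and 66.4 CPM in cKO 1 and 2 against 2.83 to 4.69 CPM in Ctrl, where the defining marker Ptprc was at 0. Lens epithelium markers were mixed. Of 8, 4 were lower in cKO (50%, against 7.73% of all tested genes), among them Cdh1 at 1 and 0 counts. Foxe3 (−3.36), Sfrp1 (−0.25), Dkk3 (0.0008) and Itga6 (0.06) were not called. The list summed to 1263 CPM in cKO 1 and 2587 CPM in cKO 2, on either side of the 1989 to 2283 CPM in Ctrl. The Y-linked genes Ddx3y and Eif2s3y were at 0 counts in both cKO libraries and at 558 to 854 in Ctrl, so sex and genotype cannot be told apart. The part of these differences in the results on the synthetase genes was not tested, and in bulk samples fewer cells of a type and less RNA per cell cannot be told apart.

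Cytosolic synthetase transcripts stood well above mitochondrial ones in every library. On the length-scaled FPKM scale, the median cytosolic gene lay at 12.9 in Ctrl and the median mitochondrial gene at 0.76, against 2.06 for the median of all tested genes. The most abundant members in Ctrl were the seryl gene Sars (25.9 ± 1.24 FPKM, SD, n = 3), the asparaginyl gene Nars (24.4 ± 2.13), the cysteinyl gene Cars (24.2 ± 2.39) and the dual glycyl gene Gars (24.1 ± 1.96). Their ranges over the Ctrl libraries overlapped, so the order among these 4 is not resolved. Lars for leucine (20.8 ± 2.76), the dual lysyl gene Kars (18.8 ± 3.0), Rars for arginine (18.5 ± 1.15), Dars for aspartate (18.1 ± 1.69), Hars for histidine (17.2 ± 3.25) and Farsb, the β subunit of the phenylalanyl enzyme (16.3 ± 2.0), followed. The lowest cytosolic gene was Tarsl2, a second threonyl gene, at 0.992 ± 0.123 FPKM. Among mitochondrial genes only Rars2 (6.47 ± 1.36) and Yars2 (4.47 ± 0.626) exceeded the median of all members, 4.32 FPKM, and Mars2 was lowest at 0.0563 ± 0.019.

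**Figure D1:**
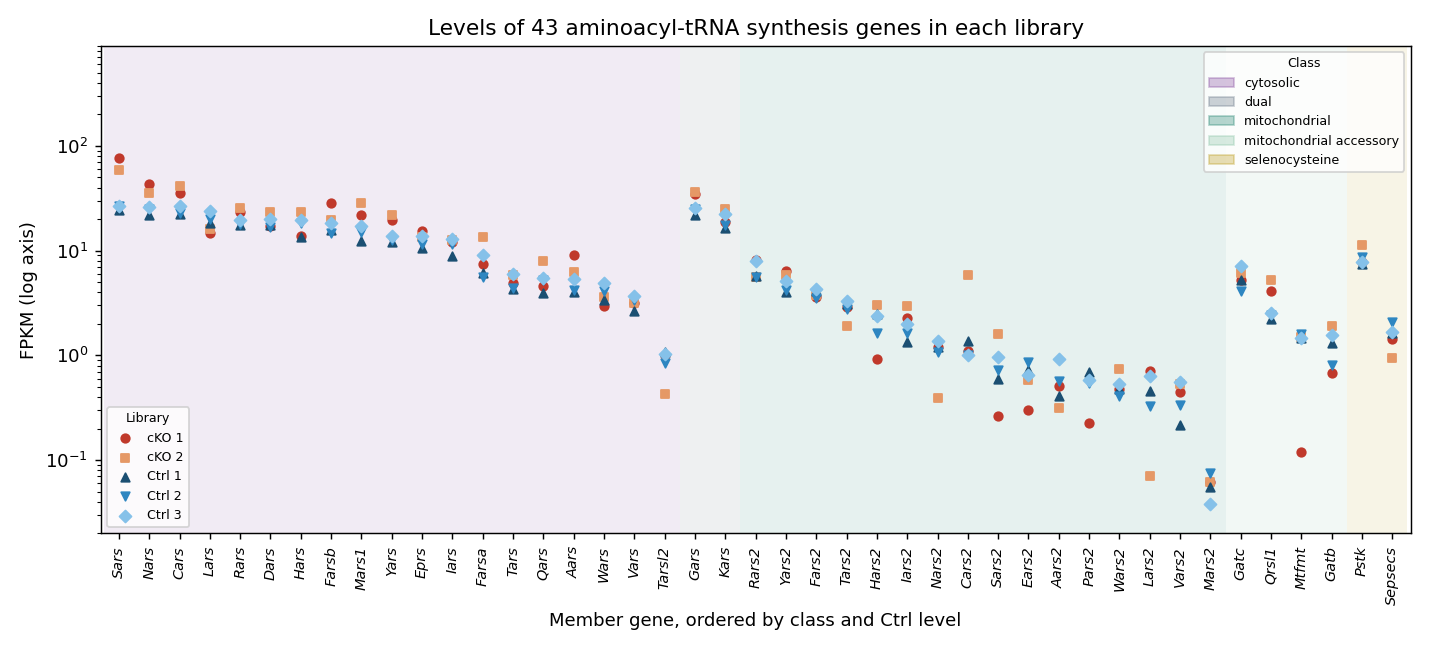
FPKM on a log axis for 43 of the 44 genes in each of the 5 libraries, ordered by class (shading) and by Ctrl level; Pars2 is listed at 0 in cKO 2 and has no point there. The cytosolic genes sit mostly above 3 FPKM and the mitochondrial ones mostly below it, and the points of single libraries spread more widely among mitochondrial genes.

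Few of the members passed the test between cKO and Ctrl. Of 44 genes, 1 was higher and 1 was lower in cKO, 4.55% in all, against 13.5% of all 11724 tested genes (5.76% higher and 7.73% lower). At an unadjusted p under 0.05, 7 members were higher and 5 lower (background 14.8% and 17.4%). Both cKO libraries lay above every Ctrl library for 9 members (20.5%, against 22.8% of tested genes) and below every Ctrl library for 10 (22.7%, against 28.7%). The share of members called was thus below the background and the shares without overlap were near or below it. The number called depended on the setting, ranging from 0 in either direction when a Ctrl library was left out to 7 higher with FPKM values and up to 7 each way with a single cKO library left. The share of all tested genes moved too: 11.8% to 12.0% were higher with FPKM values, where 7 members are 15.9%. Without cKO 1, 14.5% of all genes were higher and 23.3% lower, and without cKO 2, 17.7% and 23.9%, against 13.6% to 15.9% of members in either direction. The median change of all members was −0.04 on the log2 scale, beside −0.06 for all tested genes.

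**Figure D2:**
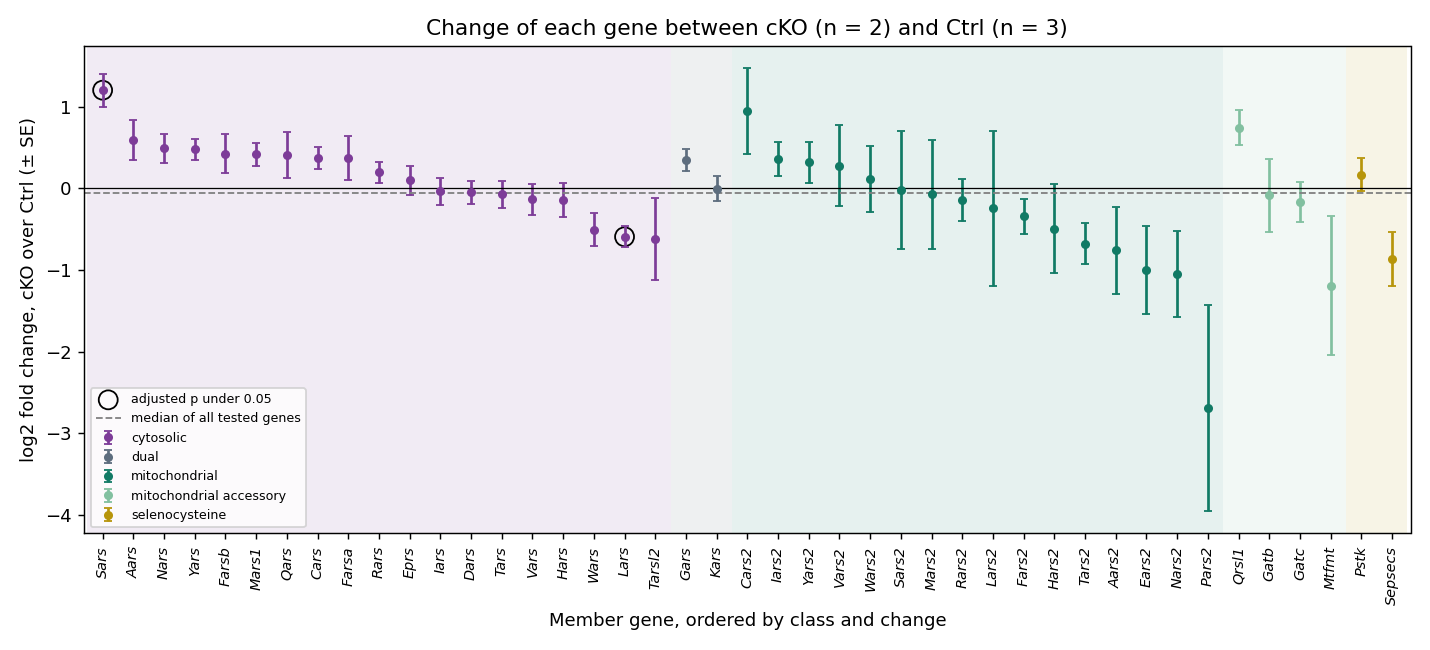
Log2 fold change of cKO over Ctrl with its standard error for 43 of the members, ordered by class and size; the dashed line is the median of all tested genes (−0.06) and open circles mark the 2 members with an adjusted p under 0.05. Sars (1.2) is the highest point and Pars2 (−2.69) the lowest, with the widest error of the members.

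Sars was the member that rose. It encodes the cytosolic seryl-tRNA synthetase, which charges serine tRNA and also the selenocysteine tRNA. Libraries cKO 1 and 2 held 169 and 110 CPM of it, with 59.2, 64.2 and 58.0 CPM for Ctrl 1, 2 and 3. Both cKO libraries lay well above the narrow range of the controls, and cKO 1 was the higher of the pair. The log2 fold change was 1.2 (SE 0.20), a 2.3-fold rise (edgeR quasi-likelihood test, Benjamini-Hochberg adjusted p = 0.0207). The change was 0.85 with only cKO 2 (without cKO 1) and 1.48 with only cKO 1 (without cKO 2), and passed in both fits (edgeR adjusted p = 0.00212 and 0.000201), which take the single cKO library to have the spread of the controls. Without Ctrl 1, 2 or 3 its size held at 1.22, 1.25 and 1.22, but the adjusted p rose to 0.094, 0.117 and 0.094 (edgeR), in fits that called 26, 6 and 30 genes higher and 39, 15 and 52 lower among all tested.

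Lars, which encodes the cytosolic leucyl-tRNA synthetase, was the member that fell. It stood at 57.4 CPM in cKO 1 and 53.8 CPM in cKO 2, with 80.6, 83.1 and 87.8 CPM for Ctrl 1, 2 and 3. The cKO libraries were close to each other and below every control. The log2 fold change was −0.59 (SE 0.13), or 0.663 of the Ctrl level (edgeR adjusted p = 0.0361). This call was lost with scaling by total counts (−0.38, edgeR adjusted p = 0.15) and with limma on log2(FPKM + 1) (−0.39, adjusted p = 0.137) or log2(FPKM + 0.1) (−0.41, adjusted p = 0.134). It was also lost without Ctrl 1, 2 or 3 (−0.59, −0.60 and −0.51, edgeR adjusted p = 0.13, 0.156 and 0.156), though the change stayed negative in each of the 14 alternative fits.

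Several other abundant cytosolic genes lay somewhat higher in cKO without passing the test. The cKO libraries had 115 and 81.4 CPM of Nars against 66.3, 72.3 and 70.5 CPM in the controls, a change of 0.49 (SE 0.18, edgeR adjusted p = 0.114). Cars stood at 76.8 and 88.2 CPM against 61.7, 62.5 and 66.9 CPM, a change of 0.37 (SE 0.13, edgeR adjusted p = 0.115). Yars, the tyrosyl gene, stood at 56.8 and 53.7 CPM against 39.6, 40.03 and 39.4 CPM. In all 3 genes the libraries of the groups did not overlap, and in Yars the spread within each group was small. Its change of 0.48 (SE 0.13) missed the threshold narrowly (edgeR adjusted p = 0.0541). It passed with DESeq2, with total-count scaling, with FPKM values and with the filter of 50 counts. These fits called 10.3%, 10.5%, 11.8% to 12.0% and 7.85% of all tested genes higher, against 5.76% in the main test. Yars did not pass with RLE scaling, with scaling without crystallins, with no count filter or without Ctrl 1, 2 or 3. Mars1, the methionyl gene whose product also charges the initiator tRNA, stood at 57.7 and 63.7 CPM against 41.0, 47.4 and 48.1 CPM (0.42, SE 0.14, edgeR adjusted p = 0.102). The dual gene Gars stood at 81.5 and 72.6 CPM against 58.3, 64.4 and 59.5 CPM (0.34, SE 0.13, edgeR adjusted p = 0.139).

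In other members the cKO libraries disagreed or the groups overlapped. Aars, for alanine, was at 52.2 CPM in cKO 1 but at 30.3 CPM in cKO 2, which lay within the Ctrl range of 25.4 to 30.6 CPM (0.59, SE 0.25, edgeR adjusted p = 0.159). Farsb behaved alike, at 53.7 and 31.8 CPM against 32.7, 29.4 and 33.4 CPM (0.425, SE 0.24, edgeR adjusted p = 0.268). Its partner subunit gene Farsa and the glutaminyl gene Qars had the higher value in cKO 2, at 20.8 and 17.0 CPM, against 13.6 and 9.56 CPM in cKO 1. Kars was level between the groups, with 38.5 and 43.1 CPM in cKO against 38.0, 39.15 and 45.4 CPM (−0.00, SE 0.15, edgeR adjusted p = 0.995). Dars had 37.2 and 43.4 CPM against 42.7, 39.15 and 43.1 CPM (−0.05, SE 0.14, edgeR adjusted p = 0.85), and Hars had 27.5 and 37.8 CPM against 30.2, 38.9 and 38.9 CPM (−0.14, SE 0.20, edgeR adjusted p = 0.682). Both genes overlapped between the groups, as did Iars for isoleucine (−0.03), Tars for threonine (−0.07) and Vars for valine (−0.14). Rars had a small difference without overlap, 49.3 and 45.7 CPM against 41.8, 41.0 and 41.35 CPM (0.20, SE 0.13, edgeR adjusted p = 0.334). Wars, for tryptophan, lay below every control, at 8.29 and 8.53 CPM against 10.4, 12.0 and 13.4 CPM (−0.51, SE 0.20, edgeR adjusted p = 0.139).

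The cytosolic and mitochondrial classes leaned in opposite directions. The 19 cytosolic genes had a median log2 fold change of 0.20, with 11 above 0, and the 17 mitochondrial genes a median of −0.24, with 12 below 0. The median of all tested genes was −0.06. Of the cytosolic genes 6 lay above every control (31.6%, background 22.8%) and 2 below (10.5%, background 28.7%), while of the mitochondrial genes 1 lay above (5.88%) and 6 below (35.3%). With all libraries, none of the 17 mitochondrial genes was called by edgeR, where 2 were lower at an unadjusted p under 0.05, or by DESeq2, where 3 were, whereas limma on FPKM called Pars2 lower. Without cKO 1, edgeR called 1 mitochondrial gene higher and 4 lower, and without cKO 2 it called 4 lower, and 4 of 17 (23.5%) is close to the 23.3% and 23.9% of all genes called lower in these fits. The gap between the medians was 0.44 and lay between 0.37 and 0.56 over the 14 alternative fits. The cytosolic median itself ranged from 0.05 (without cKO 1) and 0.06 (without cKO 2) to 0.41 with total-count scaling, which shifted the median of all tested genes by 0.22 and put 16 cytosolic genes above 0. The mitochondrial median stayed between −0.395 and −0.10, but under total-count scaling 9 of the 17 were below 0. The classes also differ in depth, with a median Ctrl count of 899 for cytosolic and 51.3 for mitochondrial genes and a median standard error of 0.18 and 0.53.

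Summed within each library, the cytosolic genes outweighed the mitochondrial ones 12.0-fold in cKO 1 and 10.7-fold in cKO 2, with 8.03-fold, 9.29-fold and 8.30-fold for Ctrl 1, 2 and 3, on the FPKM scale. Both cKO libraries thus had the larger ratio, 11.4 ± 0.884 (SD, n = 2) against 8.54 ± 0.662 (SD, n = 3). With these group sizes an exact permutation test cannot give a one-sided p below 0.1, so none was run. The cytosolic sum was 355 and 362 FPKM in cKO and 221 to 275 FPKM in Ctrl, and the mitochondrial sum 29.6 and 33.6 FPKM in cKO and 25.9 to 33.1 FPKM in Ctrl. The cKO libraries were therefore higher in the numerator and overlapped the controls in the denominator on this scale. FPKM values were not rescaled between libraries here. On the TMM-scaled CPM scale the cytosolic sum was 948 and 820 in cKO against 688 to 762 in Ctrl, and the mitochondrial sum, at 62.2 and 63.1 against 64.6 to 77.6, lay below every control. In an alternative added after seeing the data, leaving Sars out brought the FPKM ratio to 9.42 and 9.0 in cKO and 7.14 to 8.26 in Ctrl, which still did not overlap.

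Paired by amino acid, the cytosolic gene had the higher FPKM in every library in all 17 pairs, of which the glutamate and proline pairs share Eprs, the gene of the fused glutamyl-prolyl enzyme. The difference between the cytosolic and the mitochondrial log2 fold change was positive in 12 pairs and negative in 5, with a median of 0.49. The ratio within a library lay above every control in both cKO libraries for 6 pairs, among them alanine, asparagine, glutamate, proline and tyrosine, and below every control for 2 (isoleucine and tryptophan). The share of other gene pairs without overlap was not computed, so these counts have no background to be read against. The proline pair counts on cKO 1 alone, since Pars2 is listed at 0 FPKM in cKO 2. For asparagine the log2 ratio of Nars to Nars2 was 5.16 and 6.5 in cKO against 4.19, 4.54 and 4.27 in the controls. Nars lay above every control on both scales. Nars2 lay below every control on the TMM-scaled CPM scale. In FPKM it overlapped, at 1.205 and 0.394 in cKO and 1.212, 1.067 and 1.362 in Ctrl. For alanine the log2 ratio of Aars to Aars2 was 4.15 and 4.3 in cKO and 3.3, 2.89 and 2.55 in Ctrl. The serine pair overlapped, at 8.18 and 5.19 in cKO and 5.36, 5.2 and 4.79 in Ctrl, with Sars2 at 12 and 66 counts in the cKO pools.

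**Figure D3:**
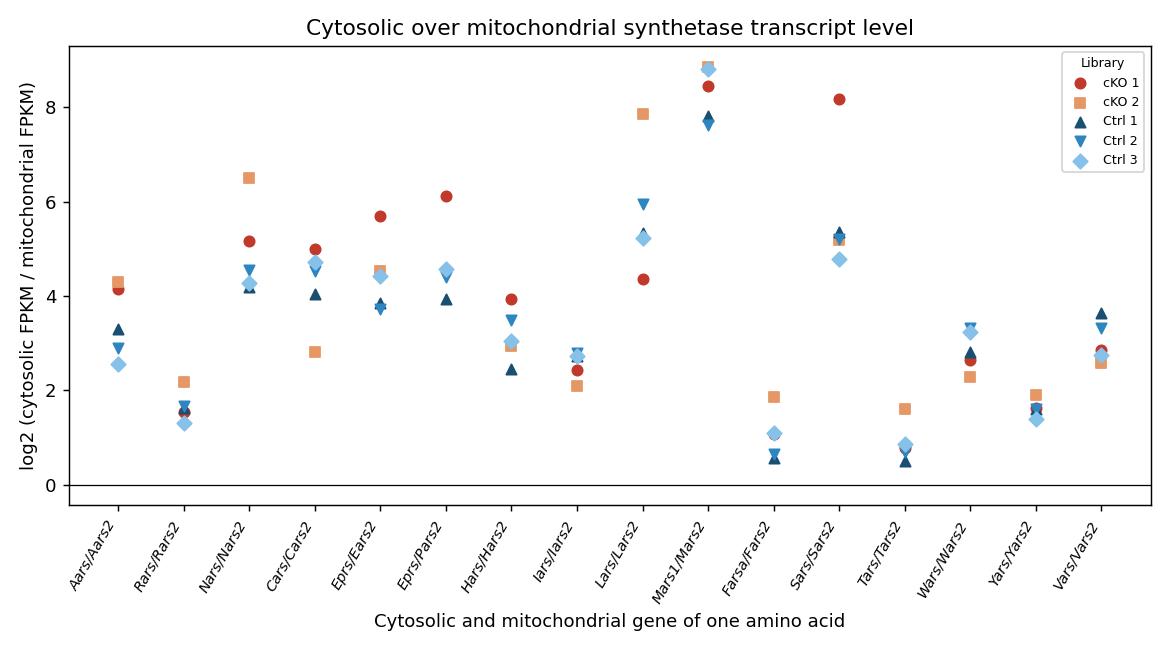
Log2 ratio of cytosolic to mitochondrial FPKM for 16 of the 17 pairs of genes for the same amino acid, 1 point per library; the proline pair has no point for cKO 2, where Pars2 is listed at 0. All points lie above 0, and the cKO points are above the 3 Ctrl points in pairs such as Aars/Aars2 and Nars/Nars2 and below them in Iars/Iars2 and Wars/Wars2.

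Among the mitochondrial genes, those of the structural class II, whose catalytic domain has a fold unrelated to that of class I, carried the lower values. All 8 of them, among them Aars2, Fars2, Hars2, Nars2, Pars2, Sars2 and Tars2, had a negative change, with a median of −0.72, and 5 lay below every control (62.5%, background 28.7%). With all libraries edgeR called 0 of the 8, and Sars2 was level at −0.02. The cKO pools lay more than 2-fold apart for 5 of them (62.5%, against 22.2% of class I and 30.2% of all tested genes). Their median absolute log2 difference between the pools was 1.45, against 0.52 for class I, so many of these changes rest mostly on 1 pool. Of the 9 class I genes, 5 were above 0, with a median of 0.11. The class II median stayed negative in each of the 14 alternative fits, although 1 of the 8 was above 0 with total-count scaling and in several other fits, and 2 were without cKO 1. In the cytosol the order was not the same, since the 9 class II genes had a median of 0.37 and the 10 class I genes one of 0.15, an order that turned without cKO 2 (0.03 and 0.16).

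Tars2, for threonine, was among the class II genes with an unadjusted p under 0.05. It had 121 and 105 counts in cKO and 156, 128 and 202 in Ctrl (−0.68, SE 0.25, edgeR adjusted p = 0.124). Both cKO libraries were below every control after scaling. Pars2, for proline, had 12 and 0 counts in cKO and 43, 27 and 38 in Ctrl (edgeR adjusted p = 0.202). The 0 in cKO 2 allows up to 3 counts, or 0.112 CPM, against 1.32 to 1.99 CPM in the controls, a limit that covers counting error only. Nars2, for asparagine, had 73 and 25 counts in cKO and 90, 78 and 108 in Ctrl (−1.05, SE 0.52, edgeR adjusted p = 0.224). Ears2, a class I gene whose product charges glutamate, had 15 and 27 counts against 36, 39 and 34 (−1.0, SE 0.54, edgeR adjusted p = 0.257).

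A few mitochondrial genes went the other way. Iars2 was the mitochondrial synthetase gene above every control in both cKO libraries, at 9.31 and 11.7 CPM against 7.84, 7.62 and 9.06 CPM (0.36, SE 0.21, edgeR adjusted p = 0.292). Cars2 had the largest positive change of the class, 0.95 (SE 0.53, edgeR adjusted p = 0.271), but it came from cKO 2 with 165 counts, while cKO 1 had 48 and the controls 55, 41 and 46. Yars2 (0.32), Vars2 (0.28) and Wars2 (0.11) overlapped between the groups. Mars2 was near its low Ctrl level, with 17 and 16 counts in cKO and 11 to 19 in Ctrl.

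The cKO pools differed from each other more in the mitochondrial than in the cytosolic genes. The median absolute log2 difference between cKO 1 and cKO 2 was 0.23 for cytosolic genes, 0.67 for mitochondrial genes and 0.57 for all tested genes. Between pairs of Ctrl libraries it was 0.12 to 0.23 for cytosolic, 0.30 to 0.33 for mitochondrial and 0.22 to 0.24 for all tested genes. More than 2-fold apart in the cKO pools were 1 of 19 cytosolic genes, 7 of 17 mitochondrial genes (41.2%) and 30.2% of all tested genes. The leucyl gene Lars2 had 68 counts in cKO 1 and 6 in cKO 2, around 32, 28 and 64 in Ctrl. Hars2 had 49 and 196 counts, around 169, 101 and 181 in Ctrl, and Sars2 had 12 and 66, around 27, 30 and 46. For Lars2 and Sars2 the controls lay between the pools after scaling, and for Hars2 cKO 2 lay within the Ctrl range and cKO 1 below it.

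**Figure D4:**
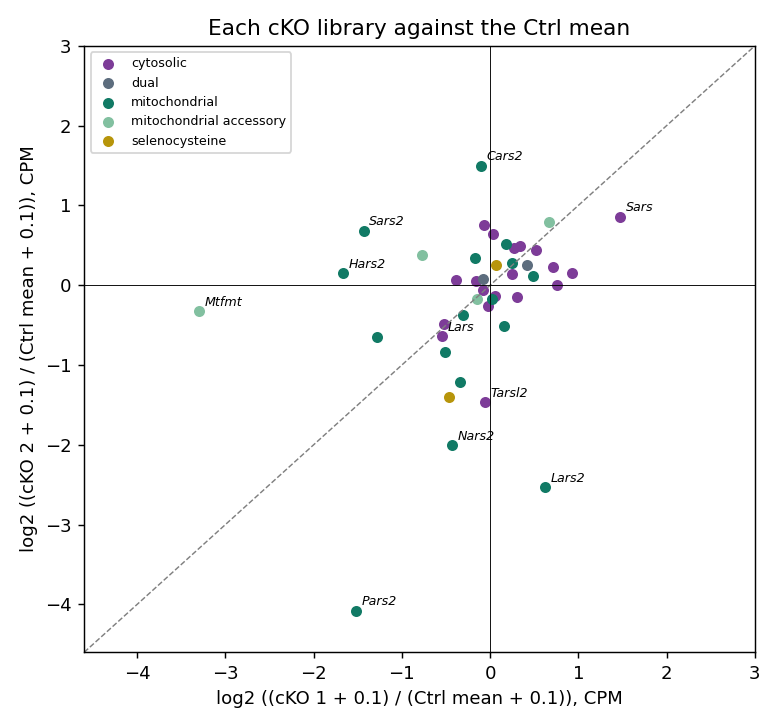
Log2 ratio of each cKO library to the Ctrl mean (0.1 CPM added), cKO 1 on the horizontal and cKO 2 on the vertical axis, 1 point for each of 43 genes coloured by class; the dashed line marks equal values. Cytosolic genes cluster near the centre, Sars lies to the upper right in both libraries, and Lars2, Mtfmt, Sars2 and Hars2 lie far from the line.

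The accessory genes of mitochondrial charging had no shared direction. Mitochondria make glutaminyl-tRNA in an indirect way, in which Ears2 first loads glutamate and the GatCAB complex then amidates it. Of its subunit genes, Qrsl1, which encodes the glutaminase subunit, stood at 8.05 and 8.79 CPM in cKO and 4.92, 5.22 and 4.95 CPM in Ctrl. Both groups were tight and did not overlap, and the change was 0.74 (SE 0.21, edgeR adjusted p = 0.0671). It passed with DESeq2, with total-count scaling and with FPKM values. These fits called 10.3%, 10.5% and 11.8% to 12.0% of all tested genes higher, against 5.76% in the main test. Qrsl1 did not pass with RLE scaling, with scaling without crystallins, with no count filter, with the filter of 50 counts or without Ctrl 1, 2 or 3. Gatb (−0.09) and Gatc (−0.16) overlapped between the groups. Mtfmt, whose product formylates the mitochondrial initiator methionyl-tRNA, had 6 counts in cKO 1 and 70 in cKO 2, against 72, 72 and 78 in Ctrl. Its change of −1.19 (SE 0.85, edgeR adjusted p = 0.381) therefore came from cKO 1.

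In the selenocysteine branch, the serine that Sars loads on the selenocysteine tRNA is phosphorylated by the Pstk product and converted by that of Sepsecs. Pstk was level, at 7.64 and 8.75 CPM in cKO and 7.06 to 7.71 CPM in Ctrl (0.17, SE 0.20, edgeR adjusted p = 0.618). Sepsecs lay below every control, at 7.07 and 3.65 CPM against 9.60, 11.03 and 8.64 CPM (−0.87, SE 0.33, edgeR adjusted p = 0.13). The first enzyme gene of this route was thus called higher, and the other 2 genes were not called.

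Several cytosolic synthetases sit together in the multisynthetase complex, held by the scaffold proteins encoded by Aimp1, Aimp2 and Eef1e1. Of the 8 enzyme genes of the complex, 4 were above and 4 below 0, with a median of 0.05. Lars was the single one called (12.5%, background 13.5%). The scaffold genes were all positive (0.21, 0.35 and 0.64) and none passed by edgeR, where 1 was higher at an unadjusted p under 0.05. Eef1e1 was at 15.2 and 13.6 CPM in cKO and 8.95, 9.23 and 9.52 CPM in Ctrl (SE 0.17, edgeR adjusted p = 0.0579). Among 18 other genes that act before or after charging, 1 was higher and 1 lower (11.1% in all, background 13.5%). Nsun2, which encodes a tRNA cytosine methyltransferase, stood at 40.03 and 35.6 CPM in cKO and 65.1 to 70.0 CPM in the controls, a log2 change of −0.84 (SE 0.14, edgeR adjusted p = 0.0195). The elongation factor genes Eef1a1 for the cytosol (0.38) and Tufm for the mitochondria (−0.51), whose proteins bring charged tRNA to the ribosome, did not pass (edgeR adjusted p = 0.115 and 0.118).

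Many cytosolic synthetase genes are known targets of ATF4, the transcription factor of the integrated stress response, which is activated when amino acids run short or proteins misfold. A list of 12 such genes, written from general knowledge of other systems, had a median change of 0.36, and the other 9 cytosolic and dual genes one of −0.00. On the list 8 genes were above 0 and 6 lay above every control (50%, background 22.8%), while Lars and Wars lay below every control. Both called members, Sars and Lars, are on it, in opposite directions. The ATF4 list median stayed positive in each of the 14 alternative fits, at 0.17 without cKO 1, 0.33 without cKO 2 and 0.57 with total-count scaling. In these 3 fits the median of the other 9 genes was 0.05, −0.06 and 0.21, so both medians moved with the setting. In the same libraries 9 of 26 integrated stress genes were higher and 1 was lower, 38.5% in all (background 13.5%, with 5.76% higher and 7.73% lower). The lower one was Ppp1r15a, at 77.4 and 23.9 CPM in cKO and 554, 599 and 594 CPM in Ctrl (−3.52, SE 0.52, edgeR adjusted p = 0.015). For 13 of the 26 the cKO pools lay more than 2-fold apart (50%, against 30.2% of all tested genes). Atf4 itself was at 141 CPM in cKO 1 and 40.4 CPM in cKO 2, around 61.4, 62.3 and 53.7 CPM in Ctrl, and Asns, which makes asparagine, at 131 and 59.6 CPM against 13.98 to 14.8 CPM.

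The promoters of the members were searched for the C/EBP-ATF response element that ATF4 binds, written TGATGNAAN, on both strands of the window from 250 bases before to 50 after each RefSeq start. The promoter table and its coordinates are on GRCm38.p6, whereas the deposited values were made on GRCm39, and genes were matched by symbol. Of the 44 members 32 matched the promoter table, while Lars, the member that fell, had no window there. The element was found in 5 of these 32 (15.6%), against 4.5% of all 27025 genes with a window and 2.61% of the 9372 tested genes. All 5 were on the ATF4 list, where 8 genes had a window. None of the 6 other cytosolic and dual genes or the 14 mitochondrial genes with a window held the element. As the list was made of known ATF4 targets, finding the element in those 5 genes is no independent test. A stretch of 30 bases around 1 match in each gene is printed 5′ to 3′ on the strand of the gene, to show the element beside the values of its gene, with the match in capitals.
Aars, chr8:111033840-111033869, + strand: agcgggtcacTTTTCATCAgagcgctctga
Gars, chr6:55037960-55037989, + strand: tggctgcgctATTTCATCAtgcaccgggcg
Iars, chr13:49682126-49682155, + strand: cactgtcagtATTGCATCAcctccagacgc
Tars, chr15:11399655-11399684, − strand: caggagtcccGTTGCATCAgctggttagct
Yars, chr4:129189896-129189925, + strand: cgagctcagcTGATGCAACccgacgggact

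The printed matches in Aars, Gars, Iars and Tars read in the direction opposite to the gene, and that in Yars in the same direction. The 5 genes differed in their values: Aars, Yars and Gars had changes of 0.59, 0.48 and 0.34, and Iars and Tars changes of −0.03 and −0.07, none of them called. Sars, the member that rose, had no match in its window. Its 250 bases before the start (chr3:108445260-108445509, − strand, GRCm38.p6), shown in lower case since no match was found, read as follows.
Sars: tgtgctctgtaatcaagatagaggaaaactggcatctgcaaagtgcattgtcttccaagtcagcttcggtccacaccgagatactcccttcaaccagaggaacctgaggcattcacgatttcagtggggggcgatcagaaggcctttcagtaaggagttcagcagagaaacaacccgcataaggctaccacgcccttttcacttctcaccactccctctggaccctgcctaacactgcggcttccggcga

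Counts of 6 members (Hars, Hars2, Farsb, Aars, Iars2 and Cars2) were more than 0.001 from a whole number in at least 1 library, which marks reads shared with another gene, so the split of those reads is uncertain.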

How the data were processed

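Per the labels' protocols, RNA with an integrity number above 8 was used, libraries were built from 1 µg, and sequencing gave 150 bp read pairs. The authors deposited expected counts and FPKM values for 22183 genes. RSEM, Trimmomatic 0.18.0 and GRCm39 appear in the submitters' processing notes. Neither the aligner nor the strand setting was found in the labels. The deposited expected counts are not scaled between libraries, per the values, and were rounded to whole numbers. The deposited FPKM values are scaled by length and library size, per the file headers.

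The filterByExpr filter (count 10, total 15) left 11724 genes, which were scaled by TMM and tested with edgeR 4.0.16 (quasi-likelihood F test, R 4.3.3) without a block. The Benjamini-Hochberg adjustment ran over these genes, with a threshold of 0.05. "Rose", "fell", "higher" and "lower" with a count refer to called genes. Standard errors come from the F statistic. Residual degrees of freedom were 3, prior ones 3.26 and the common dispersion 0.128. The fit was tested on simulated data with known fold changes, but their spread was set below the common dispersion found here. That run checks the code and does not show how often calls are right in these data. The pools are the replicates, and since the labels do not say how litters were split between them, p-values measure only the spread between these pools.

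Alternatives were DESeq2 1.42.0, total-count and RLE scaling, scaling without crystallins, other count filters, limma 3.58.1 on log2(FPKM + 1) and log2(FPKM + 0.1), a replicate block and leaving out each library. Members, classes and lists were chosen with earlier results of these data known, and list medians carry no test. No protein sequences were used here, and the individual values of some genes and sites are not reported here, although counts and medians include them. All members could be named, with full values for called members and the 10 most abundant in Ctrl. Genes of other lists were named where called, and others, such as Eef1a1, Tufm, Eef1e1 and Atf4, were chosen after their values were seen. Of the other marker lists, none of 7 endothelial, 4 red blood cell, 4 retinal and 2 pigment cell markers tested was called by edgeR, where 3 endothelial markers were higher and 1 endothelial and 2 pigment cell markers lower at an unadjusted p under 0.05, and 1 of 10 lens fibre markers was lower.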

Additional observations from a re-analysis of the deposited data

How the results depend on the processing

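Against 1 member higher and 1 lower, DESeq2 gave 3 higher, the filter of 50 counts in 2 libraries 2 higher, log2(FPKM + 1) and log2(FPKM + 0.1) in limma 7 higher each, and total-count scaling 5 higher and 0 lower (0 lower at an unadjusted p under 0.05). Of all tested genes, 10.3% were higher with DESeq2, 7.85% with the filter of 50 counts, 11.8% and 12.0% with FPKM and 10.5% with total-count scaling, where the 5 members are 11.4%. Leaving out 1 library gave 0 to 7 higher and 0 to 7 lower, with 0 each way without any one Ctrl library (3 to 5 higher and 1 lower at an unadjusted p under 0.05, edgeR). Of all genes, these fits called 0.0519% to 17.7% higher and 0.13% to 23.9% lower. The cytosolic median of 0.20 moved to 0.41 with total-count scaling and 0.32 with log2(FPKM + 0.1), and ranged from 0.0549 to 0.24 with a library left out. The mean log2 ratio of cytosolic to mitochondrial FPKM was 0.41 higher in cKO, and 0.27 higher without Sars, an alternative added after seeing the data. Genes with changes near 0 changed sign. Kars moved to 0.21 with total-count scaling and with log2(FPKM + 1), 0.22 with log2(FPKM + 0.1), 0.0161 with DESeq2, 0.0163 with RLE scaling, 0.0024 with the filter of 50 counts and 0.0088 with no filter. Dars moved to 0.17 with total-count scaling, 0.15 with log2(FPKM + 1) and 0.16 with log2(FPKM + 0.1), and Hars to 0.0841, 0.0811 and 0.084 in these. With a library left out, Kars ranged from −0.085 to 0.13, Dars from −0.163 to 0.0455, Hars from −0.39 to 0.0549 and Farsb from −0.016 to 0.756. Sars changed by 0.85 to 1.48 with a library left out. The cause of these shifts was not tested. Samples share replicate numbers only as names, and the correlation of same-numbered deviations was 0.111 and −0.0834. With the number as a replicate block, 0 members were called each way (1 higher and 1 lower at an unadjusted p under 0.05, edgeR), with 68 genes called higher and 107 lower in all, and Kars moved to 0.0782. The 2 calls lost with the block were Sars (1.14, edgeR adjusted p = 0.115) and Lars (−0.56, edgeR adjusted p = 0.264). Low counts limit most mitochondrial genes.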
